A study of Homo sapiens with 11 samples.

Results

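The nuclear-encoded genes of oxidative phosphorylation were described in 11 tumours grown from PC-3 cells, a human prostate carcinoma cell line, under the skin of male athymic nude mice. The host mice had received PBS (5 tumours, T123 to T127) or A2M (6 tumours, T128 to T132 and T112), the labels' name for alpha2-macroglobulin, which the study's methods describe as its transformed form given into the peritoneum. All tumours came from the same cell line in the same kind of host, whole tumours were extracted, and the counts hold only reads that the authors assigned to human and not to mouse. Athymic mice lack T cells, and tumours made up of 1 cell line limit what the groups can stand for. With bulk RNA, fewer cells of a type and less RNA per cell cannot be told apart. Members were chosen by symbol: the NDUF, SDH, UQCR, CYC1, COX4 to COX8 and ATP5 genes without symbols that end like pseudogenes. This rule was met by 92 of the 25590 genes in the tables, 42 named for complex I, 4 for complex II, 10 for complex III, 17 for complex IV and 19 for complex V. They comprise 74 core or accessory subunits and 18 other genes, namely 11 isoforms or close relatives, 3 RNAs named as antisense, 2 readthrough genes and 2 others with an ATP5 symbol (ATP5S and ATP5SL). The last 2 now carry the symbols DMAC2L and DMAC2, and they are counted with complex V by their older symbols only. NDUFAB1, the acyl carrier protein of complex I, does not match the rule, and NDUFA4, whose symbol points to complex I, was later assigned to complex IV and is counted here as named, among the 18. The 13 subunits encoded by mitochondrial DNA were not analysed here.

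Oxidative phosphorylation is carried out in the inner mitochondrial membrane. Complex I takes electrons from NADH and complex II from succinate, both pass them through ubiquinone to complex III and on through cytochrome c to complex IV, which reduces oxygen. Complexes I, III and IV pump protons, and complex V, the ATP synthase, uses the gradient to make ATP. Except for complex II, the complexes are mosaics of mitochondrially and nuclear-encoded proteins, and factors such as NRF1 and the ETS protein GABP are known to act on promoters of many of the nuclear genes. Tumour cells often draw heavily on glycolysis while they keep respiring.

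Between 16958533 and 35874381 reads per tumour had been counted, and 3 counts, taken as the smallest amount shown, equalled 0.0836 to 0.177 RPM, a limit that covers counting error only. The cell type was checked against markers. KRT8, KRT18, EPCAM, CDH1, VIM and MSMP, a protein secreted by PC-3 cells, were all high, with 6 of 6 tested and a summed RPKM of 10070 to 13019 in the PBS and 9121 to 10566 in the A2M tumours. MSMP took most of this sum and was, with a log2 fold change of -0.25 (A2M over PBS), the 1 of the 6 with an unadjusted p under 0.05, and all 6 were below 0. Of the androgen-dependent luminal genes KLK3 had no count and KLK2 at most 1 per tumour. Markers of fibroblasts summed to 54.2 to 112.8 and 54.1 to 156 RPKM, mostly from COL1A1, with DCN at no more than 3 counts, and the 4 tested were above 0 with a median log2 fold change of 0.45. COL1A2 (38 to 170 counts) was the 1 of these with an unadjusted p under 0.05 (0.73, SE 0.335, edgeR adjusted p = 0.699). Sums of the markers of endothelium (3.64 to 5.31 and 3.44 to 5.21 RPKM), leukocytes (16.1 to 20.9 and 17.3 to 20.8 RPKM) and muscle (18.9 to 31.4 and 14.4 to 28.3 RPKM) overlapped between the groups. The endothelial sum was mostly PECAM1 (mean 3.93 RPKM), and of the 4 endothelial genes tested 3 were below 0. VWF (11 to 33 counts) was the 1 of them with an unadjusted p under 0.05 (-0.42, SE 0.168, edgeR adjusted p = 0.648). Of the 6 muscle genes MYH7 and CKM had at most 1 and 4 counts and MYH2 at most 26, whereas MB had 256 to 954, TNNT2 135 to 392 and ACTA1 117 to 248. These last 3 were the ones tested, and all were below 0, with MB at -0.50 (SE 0.220, edgeR adjusted p = 0.698) the 1 with an unadjusted p under 0.05. Whether RNA of such cells contributed to the members' values was not tested.

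All 74 subunits were expressed in every tumour. Their mean level ran from 10.04 RPKM (reads per kilobase of exon and per 1e+06 counted reads, as deposited) for NDUFA5 to 737 for COX7C, a 73.4-fold range, and 36 of the 74 were among the 1000 most expressed of the 22078 genes with a read. Complex IV stood highest per subunit with a median of 204 RPKM over 10 subunits, 8 of which reached 100 RPKM. The median was 106 RPKM over the 15 subunits of complex V, 55.2 over the 36 of complex I, 55.5 over the 9 of complex III and 48.1 over the 4 of complex II, none of which reached 100 RPKM.

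**Figure D1:**
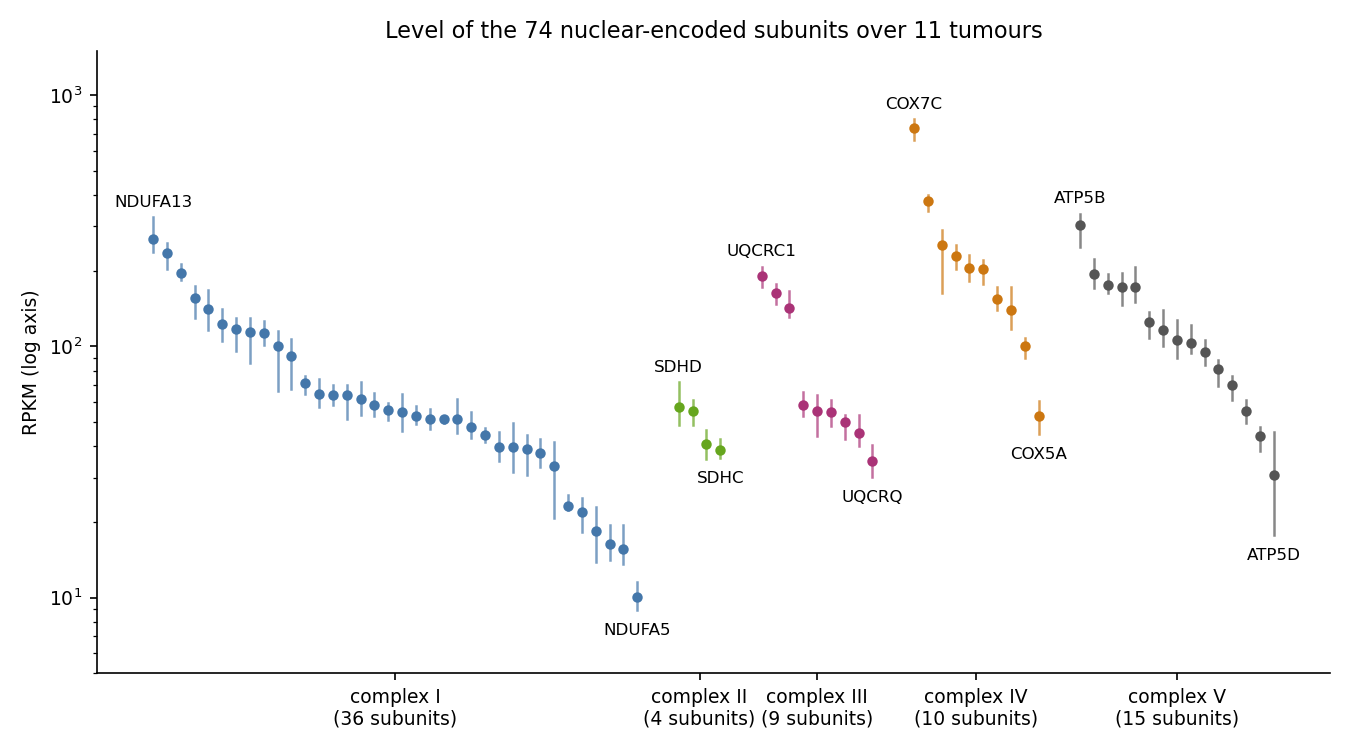
Level of each of the 74 subunits by complex (y axis, RPKM on a log axis; x axis, subunits in order of level). Points are means over 11 tumours and lines run from the lowest to the highest tumour. Complex IV reaches highest with COX7C at 737 RPKM, complex I spans most with NDUFA13 at 268 and NDUFA5 at 10.04 RPKM, and the 4 subunits of complex II lie between 38.5 and 57.2 RPKM.

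Among the core subunits of complex I described here, those that bind NADH and the first iron-sulphur clusters, NDUFV1 (mean 122.8 RPKM) and NDUFV2 (117), and NDUFS8 (114) of the connecting arm were the most abundant, whereas NDUFS3 (47.9), NDUFS7 (33.5) and NDUFS1 (18.4), the large iron-sulphur subunit, were lower. NDUFA13, an accessory subunit also known as GRIM-19, had the highest level of the complex. It had 326, 295, 267, 241 and 256 RPKM in the PBS tumours T123 to T127, and 237 to 278 with a median of 263 RPKM in the A2M tumours. The groups overlapped, with the highest values in T123 and T124.

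The 4 genes of complex II, which is wholly nuclear-encoded and doubles as an enzyme of the citric acid cycle, lay within a 1.49-fold range. SDHD, a membrane anchor, had a mean of 57.2 RPKM, SDHB, the iron-sulphur subunit, 55.2, SDHA, the flavoprotein with the succinate site, 40.9 and SDHC, the other anchor, 38.5. The order of SDHC depends on the length used. Its exons add up to 2879 bases in the authors' annotation and its canonical GENCODE transcript to 1308, and per length of the latter it ranked highest of the 4.

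In complex III the core proteins UQCRC1 (191 RPKM) and UQCRC2 (58.4) differed widely, as did cytochrome c1, CYC1 (142), and the Rieske iron-sulphur protein, UQCRFS1 (45.4). UQCRH, the hinge protein, had 163 RPKM and UQCRQ, with 35.0 RPKM, the lowest level of the complex. In complex IV the small subunit COX7C was followed by COX6A1 (378 RPKM), COX8A (252), COX7B (229) and COX4I1 (204), whereas COX5B (139.8) and COX5A (52.6), which are present at equal numbers in the enzyme, were lower. Complex V was led by ATP5B (303 RPKM), the catalytic beta subunit of the F1 head. The alpha subunit ATP5A1, of which the head holds as many copies, had 69.9 RPKM, the gamma subunit ATP5C1 106, the delta subunit ATP5D 30.6, the epsilon subunit ATP5E 172 and the stator protein ATP5O 175.

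RPKM uses the length of all annotated exons, and 7 members had exons at least 2 times as long as their canonical transcript while others, such as COX7B (456 bases of exon against 2444) and ATP5E (439 against 3610), had the reverse. With the canonical length COX7B moved from rank 4 to rank 9 in its complex, ATP5E from 4 to 15 and NDUFA11 from 29 to 4, whereas NDUFA13, COX7C and ATP5B kept rank 1. Neighbours in the order of levels can therefore not be told apart by rank alone. Levels are also uncertain for members with near copies: 48 of the 92 have annotated pseudogenes, COX6C with 17 the most, and 32 of the 89 protein-coding members share exonic positions with a gene on the other strand, with no strand setting given in the sources used here.

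Several subunits come in forms used by different tissues, and for subunits 4, 6A, 6B, 7B and 8 of complex IV the common form made up nearly all of the RNA. COX6A2, the heart and muscle form of subunit 6A, had 0 counts of 315828824 in all 11 tumours, which allows up to 3 counts, beside 378 RPKM of COX6A1. COX4I2, the lung form that is raised by low oxygen, had 3 counts in all, in 3 tumours, beside 204 RPKM of COX4I1. COX7A1, the heart and muscle form of subunit 7A, had 31 counts over 8 tumours with at most 7, COX7B2 8 counts and COX8C, a testis form, 13. Among forms with enough counts for a test, COX6B2, known from testis, had 71 to 194 counts per tumour and made up 1.57% of subunit 6B RPKM, and COX7A2L, a relative of subunit 7A that takes part in supercomplexes, 44.9% of subunit 7A RPKM (19.6% by canonical length).

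The c-ring of complex V is built from 1 mature protein encoded by 3 genes. ATP5G1 gave 44.1% of their summed RPKM, ATP5G2 39.2% and ATP5G3 16.7%. By canonical length ATP5G2 led with 54.5%, before ATP5G1 with 30.2% and ATP5G3 with 15.4%, so the order of the first 2 changed with the length. The share of ATP5G1 was 44.6% ± 2.79 (SD, n = 5) in PBS and 43.7% ± 2.53 (SD, n = 6) in A2M tumours. UQCRHL, an intronless copy of UQCRH, held 18.5% of their summed RPKM, and reads from UQCRH could have been counted there. ATP5L2, a copy of ATP5L, held 4.70%. The readthrough genes NDUFC2-KCTD14 and ATP5J2-PTCD1 were at 0 in every tumour, and NDUFA6-AS1, NDUFB2-AS1 and NDUFV2-AS1, named as antisense RNAs, had 4.46, 1.15 and 1.65 RPKM. By annotated exons only NDUFB2-AS1 overlaps the gene it is named for, and NDUFA6-AS1 now carries the symbol NDUFA6-DT.

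The genes are spread over the genome. On GRCh37 the 89 protein-coding members lay on 22 chromosomes, 13 of them on chromosome 19 and 3 on X. For 26 of the 89 (29.2%) another gene started within 1000 bases in head-to-head orientation, against 15.5% of 20176 protein-coding genes. Examples are SDHD (chromosome 11, 111957548 to 111990739) with TIMM8B, which encodes a mitochondrial import protein, and NDUFS6 (chromosome 5, 1801521 to 1816162) with MRPL36, a mitochondrial ribosomal protein.

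Promoter sequences from RefSeq on GRCh38.p14, 250 bases before to 50 after the start, were available for 61 of the 74 subunits. On either strand, 8-letter motifs known to be bound by regulators of these genes were searched. The NRF1 motif GCGCATGC was found in 14 of 61 (23.0%), against 3.68% of 27305 genes with a promoter window and 4.89% of the 15842 protein-coding ones. The ETS motif CCGGAAGT occurred in 18.0% (against 4.95% and 6.97%), the YY1 motif AAGATGGC in 19.7% (3.52% and 4.67%) and the cAMP response element TGACGTCA in 8.20% (2.25% and 2.998%). NRF1, ETS or both were found in 22 of the 61 (36.1%, against 8.26% and 11.3%). By complex, NRF1 occurred in 6 of 31 windows of complex I, 2 of 3 of complex II, 0 of 7 of complex III, 2 of 9 of complex IV and 4 of 11 of complex V, and ETS in 2, 1, 3, 2 and 3 of them. The GCGCATGC motif and its complement overlap each other where a run reads GCGCATGCGC. A match is a description of letters and no site of binding.

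**Figure D2:**
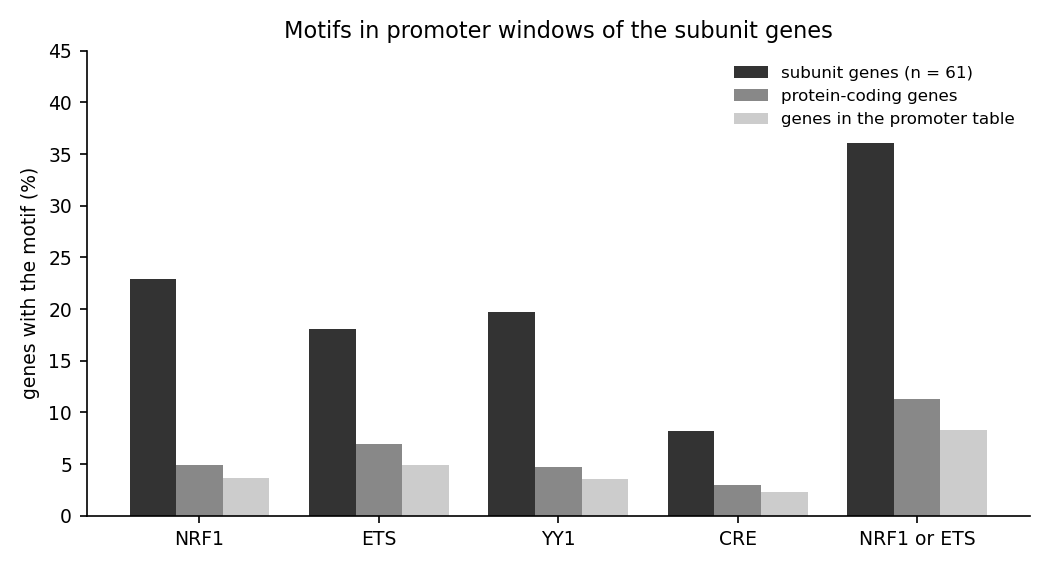
Share of genes (y axis, percent, from 0) whose promoter window holds each motif on either strand (x axis), for the 61 subunit genes with a window, the protein-coding genes and the genes of the promoter table. The dark bars of the subunit genes are the highest for each motif, with 23.0% for NRF1 and 36.1% for NRF1 or ETS.

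Stretches upstream of the start are shown for subunits of each complex, to let the motifs be seen in their context. Sequences are 5′ to 3′ on the strand of the gene with the motif, or its complement, in capitals.
NDUFS7, NRF1, chr19:1383808-1383867, + strand: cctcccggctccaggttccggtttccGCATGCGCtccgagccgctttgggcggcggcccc
SDHB, NRF1, chr1:17054199-17054258, - strand: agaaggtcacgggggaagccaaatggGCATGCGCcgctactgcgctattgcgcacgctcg
SDHD, NRF1, chr11:112086739-112086798, + strand: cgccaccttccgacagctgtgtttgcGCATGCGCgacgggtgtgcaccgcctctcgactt
SDHD, ETS, chr11:112086769-112086828, + strand: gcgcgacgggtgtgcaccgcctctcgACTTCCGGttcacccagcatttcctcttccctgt
UQCRH, ETS, chr1:46303625-46303684, + strand: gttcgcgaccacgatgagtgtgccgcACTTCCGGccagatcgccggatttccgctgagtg
COX5B, NRF1, chr2:97645900-97645959, + strand: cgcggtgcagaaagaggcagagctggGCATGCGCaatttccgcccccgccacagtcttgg
COX5B, ETS, chr2:97645999-97646058, + strand: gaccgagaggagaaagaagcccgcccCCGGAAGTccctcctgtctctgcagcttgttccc
ATP5C1, NRF1, chr10:7788131-7788176, + strand: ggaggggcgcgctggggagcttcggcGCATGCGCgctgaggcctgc
In SDHD and COX5B the windows hold both motifs, and in SDHD their printed stretches overlap. The regulators themselves were expressed, with 7.63 RPKM of NRF1, 8.90 of GABPA and 12.7 of YY1. Of the coactivator genes PPARGC1A had 5 to 15 counts per tumour, PPARGC1B 75 to 232 and PPRC1 1064 to 2450.

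The comparison of A2M with PBS tumours asked whether the treatment altered RNA in the tumour cells. Counts were tested with edgeR's quasi-likelihood test over the 16630 genes that passed a filter on low counts, among them 85 of the 92 members and all 74 subunits. COX4I2, COX6A2, COX7A1, COX7B2, COX8C and the 2 readthrough genes did not pass. None of the 85 had an adjusted p under 0.01 (edgeR, Benjamini-Hochberg over all genes tested), as was the case for 0% of all genes, and the smallest adjusted p among members was 0.648. At an unadjusted p under 0.05 there were 5 members, 5.88% of those tested against 7.08% of all genes. All 5 were lower in A2M tumours, where 3.53% of all genes were lower at that p. By DESeq2 6 members (7.06% against 7.41% of all genes) had such a p and none an adjusted p under 0.01. The study's methods ask that edgeR and DESeq each give a p not above 0.01, and with DESeq2 in place of DESeq and unadjusted p this was met by 0 members and 1.45% of all genes. By CPM, here counts per 1e+06 counts scaled with TMM factors, the groups overlapped for each of the 85 members, while they did not for 0.71% of all genes. By RPKM, which carries no TMM factors, they did not overlap for ATP5H alone, against 0.848% of all genes.

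Fitted differences were small. Over the 85 members the log2 fold change (A2M over PBS) ranged from -0.27 for NDUFA4L2 to 0.13 for SDHD, with a median of -0.05 against -0.0021 over all genes and -0.02 over the 6887 well expressed genes, those whose log2 CPM averaged 5 or more. The difference was below 0 for 64 members (75.3%, against 50.6% of all genes) and above 0 for 21. Of the 6887 well expressed genes 3965 were below and 2922 above 0, and of the 71 members among them 52 and 19. The split of the 85 members depends on the scaling. With library size only it was 45 and 40, with 52.9% of members and 36.6% of all genes below 0. The median was then -0.0052 for members and 0.04 for all genes. Relative to the median of all genes, members were thus lower by a similar small amount on both scales.

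**Figure D3:**
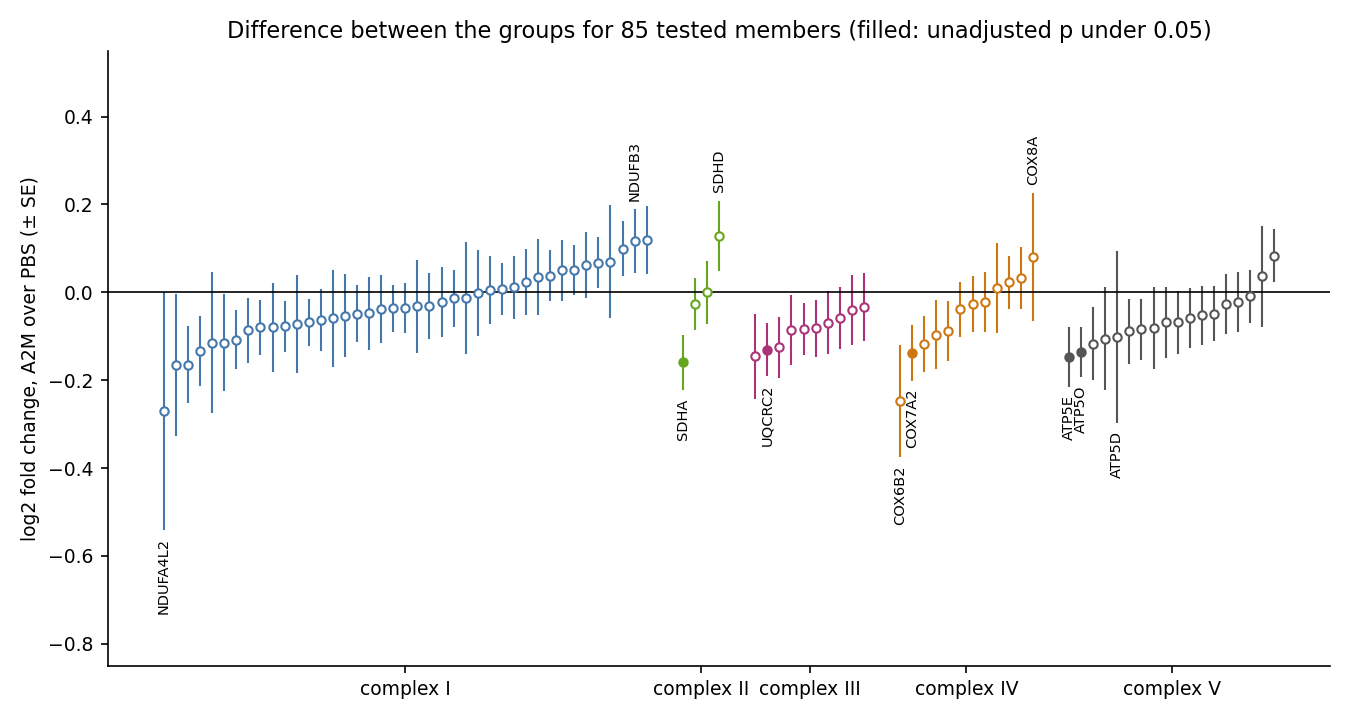
Log2 fold change of A2M over PBS tumours (y axis, ± SE) for the 85 tested members in order of size within each complex (x axis). Filled points mark the 5 members with an unadjusted p under 0.05, none of which passed the adjusted threshold. Most points lie between -0.2 and 0.2, and NDUFA4L2 has the longest error bar. By TMM scaling 64 lie below 0 (75.3%, against 50.6% of all genes), and 45 by library size only (52.9% against 36.6%). Of the 6887 well expressed genes 3965 were below 0 by TMM scaling.

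For SDHA (chromosome 5, 218418 to 257197), the flavoprotein of complex II, the PBS tumours had 40.4, 42.7, 46.2, 41.9 and 42.4 RPKM, and the A2M tumours 35.7 to 41.4 with a median of 39.9 RPKM. The lowest PBS tumour lay below the highest A2M tumour, and the other PBS tumours above it. The log2 fold change was -0.16 (SE 0.064, edgeR adjusted p = 0.648). For the other genes of complex II it was -8.9e-06 (SDHB), -0.03 (SDHC) and 0.13 (SDHD, SE 0.081, edgeR adjusted p = 0.799), and by library size only SDHB and SDHC stood above 0, at 0.04 and 0.02. Whether SDHA differed from them was not tested.

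ATP5O, the stator protein that confers oligomycin sensitivity, had 193, 184, 182, 183 and 163 RPKM in PBS and 163 to 183 with a median of 167 RPKM in A2M tumours. T127 was about as low as the lowest A2M tumour, and the other PBS values reached from just under the highest A2M value upwards. Its log2 fold change was -0.14 (SE 0.057, edgeR adjusted p = 0.672). ATP5E, the epsilon subunit of the rotor, had 196, 178, 180.1, 179.7 and 161 RPKM in PBS and 146 to 184 with a median of 168 RPKM in A2M tumours. The groups overlapped over most of their range, and the log2 fold change was -0.15 (SE 0.068, edgeR adjusted p = 0.701).

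COX7A2 (chromosome 6, 75947391 to 75960039), the common form of subunit 7A, had 108, 105, 108, 104 and 92.8 RPKM in PBS and 89.6 to 106 with a median of 95.5 RPKM in A2M tumours. Only T127 of the PBS tumours lay below 100 RPKM. The log2 fold change was -0.14 (SE 0.064, edgeR adjusted p = 0.700), and it was 0.02 (SE 0.060) for its relative COX7A2L. UQCRC2, core protein 2 of complex III, had 60.0, 57.4, 62.4, 65.9 and 56.0 RPKM in PBS and 52.9 to 60.99 with a median of 57.3 RPKM in A2M tumours. Both groups covered the range from 56.0 to 60.99 RPKM. Its log2 fold change was -0.13 (SE 0.060, edgeR adjusted p = 0.701).

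The 5 members lay near the threshold, and with each tumour left out in turn their log2 fold changes remained below 0, from -0.19 to -0.11, while the number with such a p changed. With T124 or T125, both PBS, left out, 0 members had an unadjusted p under 0.05, against 5.24 and 4.09% of all genes. ATP5E, for example, had -0.14 without either of them. There was 1 without T131 (4.61% of all genes), 2 without T123, 3 without T112, T128 or T129, 4 without T130 or T132 and 6 without T126 or T127. Without T126 only ATP5O and SDHA of the 5 were among them, beside ATP5G1, NDUFA13, NDUFB7 and UQCR11. Members outside the 5 were also COX6B2 without T123 or T128, COX7C without T127, and ATP5I and NDUFB7 without T132. Without T129 NDUFB3 was among them, higher in A2M tumours. Over these fits 0 to 7.06% of the members had such a p, and 4.09 to 10.1% of all genes.

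In complex I, 14 of 41 tested members were above and 27 below 0, with a median of -0.04 and no unadjusted p under 0.05. The smallest p on the lower side belonged to NDUFB7 (-0.16, SE 0.088), NDUFA13 (-0.13, SE 0.080) and NDUFA6 (-0.11, SE 0.068), and on the higher side to NDUFB3 (0.12, SE 0.072), NDUFB6 (0.10, SE 0.062) and NDUFC2 (0.12, SE 0.078), all accessory subunits, with edgeR adjusted p from 0.760 to 0.812. Of the core subunits NDUFS1 (-0.11), NDUFS3 (-0.01), NDUFS7 (-0.11), NDUFS8 (-0.06) and NDUFV1 (-0.04) were below and NDUFV2 (0.06) was above 0, though by library size only NDUFS3 and NDUFV1 were above 0 too. An interval of 2 SE on either side spanned -0.14 to 0.12 for NDUFS3 and -0.44 to 0.21 for NDUFS7.

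In complex III all 10 members were below 0 with a median of -0.08 (8 of 10 by library size only, median -0.04). UQCR11, a small subunit, had -0.15 (SE 0.096), UQCRC1 -0.12 (SE 0.069), CYC1 -0.08 (SE 0.065) and UQCRFS1 -0.06 (SE 0.070), and UQCRQ had -0.04 (SE 0.080), which was 0.0041 by library size only. In complex IV 4 of 12 were above and 8 below 0 (median -0.03). The largest difference was that of COX6B2, with -0.25 (SE 0.127, edgeR adjusted p = 0.743). COX7C had -0.12 (SE 0.063), COX4I1 -0.10 (SE 0.078), COX5A 0.03 (SE 0.071), COX5B 0.01 (SE 0.102) and COX8A 0.08 (SE 0.145). In complex V 2 of 18 were above and 16 below 0 (median -0.07). ATP5I, of the membrane part, had -0.12 (SE 0.083). For the head, ATP5A1 had -0.06, ATP5B -0.07 and ATP5C1 -0.08, with SE of 0.067 to 0.093. ATP5H, of the stator, had 191, 194, 185, 170.1 and 179 RPKM in PBS and 194 to 222 with a median of 197 RPKM in A2M tumours. The groups just failed to meet, with 193.5 RPKM in T124 and 194.3 RPKM in T112, and overlapped once TMM factors were used. Its log2 fold change was 0.08 (SE 0.060, edgeR adjusted p = 0.838). By library size only, ATP5H and NDUFB6 were the 2 members with an unadjusted p under 0.05, both higher in A2M tumours (2.35% of the members against 7.998% of all genes), and the exons of both overlap those of a gene on the other strand.

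For the complexes as a whole RPKM was summed over members. All 92 members added up to 8928, 8370, 8376, 7898 and 7812 RPKM in the PBS tumours T123 to T127 and to 8005 to 8475 with a median of 8258 RPKM in the A2M tumours, which was 2.03% of all RPKM. The means were 8277 ± 448 (SD, n = 5) and 8225 ± 173 (SD, n = 6). Complex I summed to 2816 ± 188 and 2831 ± 97.8 RPKM, complex II to 189 ± 8.61 and 194 ± 10.3, complex III to 848 ± 47.8 and 819.6 ± 16.3, complex IV to 2544 ± 122.7 and 2528 ± 70.3, and complex V to 1880.2 ± 117 and 1852 ± 41.0 (SD, n = 5 and n = 6). The log2 ratios of the means were 0.0074, 0.04, -0.05, -0.0090 and -0.02, and rescaled with TMM factors -0.04, -0.0020, -0.09, -0.05 and -0.07. As deposited, each difference of the means was smaller than the SD of the PBS tumours. This does not extend to the rescaled sums, where complex III had the largest ratio, -0.09, and no SD is given. Over the 11 tumours 32.6 to 35.4% of the members' RPKM fell to complex I, 2.15 to 2.54% to II, 9.59 to 10.4% to III, 30.3 to 31.2% to IV and 21.8 to 23.5% to V. The share of complex III was 10.2% ± 0.156 in PBS (SD, n = 5) and 9.97% ± 0.229 in A2M tumours (SD, n = 6), a difference larger than either SD that was not tested. For the other complexes the means of the groups differed by less than 1 SD.

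**Figure D4:**
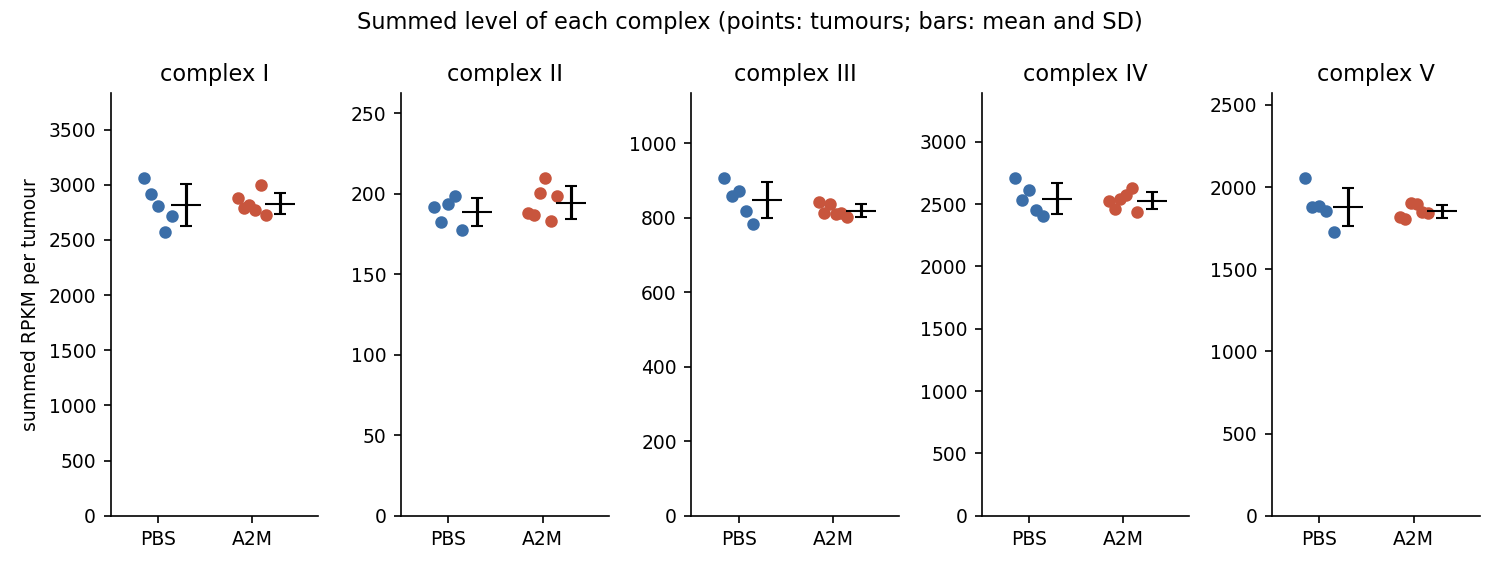
Summed RPKM of the members of each complex (y axes, from 0) in every PBS tumour and A2M tumour (points), with the mean and SD of each group as black bars. The groups overlap in each panel, from 2816 and 2831 RPKM in complex I to 189 and 194 RPKM in complex II.

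NDUFA4L2 (chromosome 12, 57628686 to 57634498), a relative of NDUFA4 known to be induced by hypoxia-inducible factor, was the member with the lowest fitted difference. It had 1.10, 1.43, 1.32, 0.840 and 2.28 RPKM in PBS and 0.603 to 1.74 with a median of 1.28 RPKM in A2M tumours, from 23 to 97 counts each. T127 was highest and T112 (A2M) lowest, and the ranges overlapped. Its log2 fold change was -0.27 (SE 0.270, edgeR adjusted p = 0.891). It made up 1.73% of the sum with NDUFA4, which had a mean of 75.5 RPKM and a log2 fold change of 0.02 (SE 0.075). Exons of NDUFA4L2 overlap those of SHMT2 on the other strand.

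A list of 20 hypoxia targets, which holds no member, had lower fitted values in A2M tumours. Of these 20 of 20 were below 0 with a median log2 fold change of -0.48, and 14 had an unadjusted p under 0.05, against 3.53% of all genes on that side, though none passed the adjusted threshold (edgeR, smallest adjusted p = 0.599). The 20 genes were measured in the same 11 tumours, so they are no independent counts. The mean z-score of the list per tumour overlapped between the groups. It ran from -0.64 (T123) to 1.39 (T125) in PBS and from -1.61 (T131) to 0.24 (T129) in A2M tumours. PDK1, a kinase that inhibits pyruvate dehydrogenase, had -0.77, SLC2A1, a glucose transporter, -0.77, PGK1 -0.43 and LDHA -0.31. Against the mean z-score of this list NDUFA4L2 had a Pearson's r of 0.248 (permutation test with 1e+05 permutations, two-sided p = 0.466) and a Spearman's rho of 0.382 (p = 0.249) over 11 tumours. Within the 6 A2M tumours r was 0.0449 (exact permutation p = 0.931) and rho 0.371 (p = 0.497), and none was computed within the PBS group, which has 5 tumours. Without the 2 tumours farthest from the median of the list, T128 and T131, r was 0.411 over 9 tumours (permutation p = 0.271) and rho 0.383 (permutation p = 0.309). With each tumour left out in turn r ranged from 0.178 to 0.362 and rho from 0.285 to 0.612. The highest rho was that without T126 (permutation p = 0.0666). NDUFA4L2 against this list was the only relation of this kind that was tested, so p-values were not adjusted further. No relation was detectable with this number of tumours.

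None of the other genes of the pathway passed the adjusted threshold either, though some had larger log2 fold changes than the subunits, which ranged from -0.16 to 0.13. Those of the assembly factors ranged from -0.32 to 0.28. Of 47 assembly factors 26 were above and 21 below 0 with a median of 0.03, and an unadjusted p under 0.05 was found for COA6 (0.28, SE 0.088), NDUFAF1 (0.20, SE 0.081), UQCC1 (0.15, SE 0.061), PET117 (-0.31, SE 0.117) and ATPAF2 (-0.26, SE 0.114). That is 10.6% against 7.08% of all genes, with edgeR adjusted p of 0.619 to 0.697. These serve, in this order, complexes IV, I, III, IV and V. Of 17 tested regulators of mitochondrial biogenesis 13 were above 0 (median 0.04) and of 15 electron carriers and entry points 6 (median -0.02), none with an unadjusted p under 0.05. Of 19 genes of the citric acid cycle and pyruvate dehydrogenase 8 were above and 11 below 0 (median -0.02), and IDH2, the mitochondrial NADP-dependent isocitrate dehydrogenase, had -0.32 (SE 0.097, edgeR adjusted p = 0.604).

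The members varied little between tumours of a group. The SD of log2 CPM within groups had a median of 0.109 over the 85 members, against 0.185 over all genes and 0.138 over the 6887 well expressed genes. The widest was NDUFA4L2 (0.498), which also had few counts, followed by ATP5D (0.398), NDUFS7 (0.324), COX8A (0.293) and NDUFS6 (0.253), which are abundant. ATP5D had 45.7, 27.0, 32.9, 17.7 and 33.1 RPKM in PBS and 20.7 to 37.5 with a median of 30.7 RPKM in A2M tumours. T126 was lowest and T123 highest.

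NDUFS7 had 41.6, 34.0, 36.4, 24.2 and 35.6 RPKM in PBS and 20.7 to 40.4 with a median of 34.0 RPKM in A2M tumours, and COX8A 286, 223, 248, 163 and 281 RPKM in PBS and 186 to 289.9 with a median of 275 RPKM in A2M tumours. In each of the 3 genes T126 was the lowest PBS tumour and T130 the lowest A2M tumour. Their transcripts are rich in G and C, with 69.5% for ATP5D, 66.9% for NDUFS7 and 57.9% for COX8A.

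Of the 24 subunits of highest GC content (52.9 to 69.5% of the canonical transcript) all 24 lay below their own mean in T126 and 20 in T130, while 6 and 3 of the 24 of lowest GC content (34.6 to 44.9%) did. The median deviation from a subunit's own mean (log2 CPM) was -0.18 in T126 and -0.08 in T130 for the first and 0.06 in both tumours for the second. In T131 it was -0.10 for the first and 0.03 for the second. Over the 73 subunits with a value, GC content and deviation had an r of -0.744 in T126, -0.725 in T130 and -0.529 in T131, and of 0.716 in T127 and 0.546 in T123. These subunits share the library and its base composition, so the coefficients are descriptions. All genes did the same: of the 5226 of highest GC content 4426 lay below their own mean in T126 and 4309 in T130, and r over 15678 genes was -0.592 and -0.559. T126 and T130 belong to different groups. Without both, 5 members (5.88% against 7.50% of all genes) had an unadjusted p under 0.05, all lower, of which ATP5E and SDHA were among the 5 named above and NDUFA1, NDUFA13 and NDUFB7 were not, and the median log2 fold change was -0.06.

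**Figure D5:**
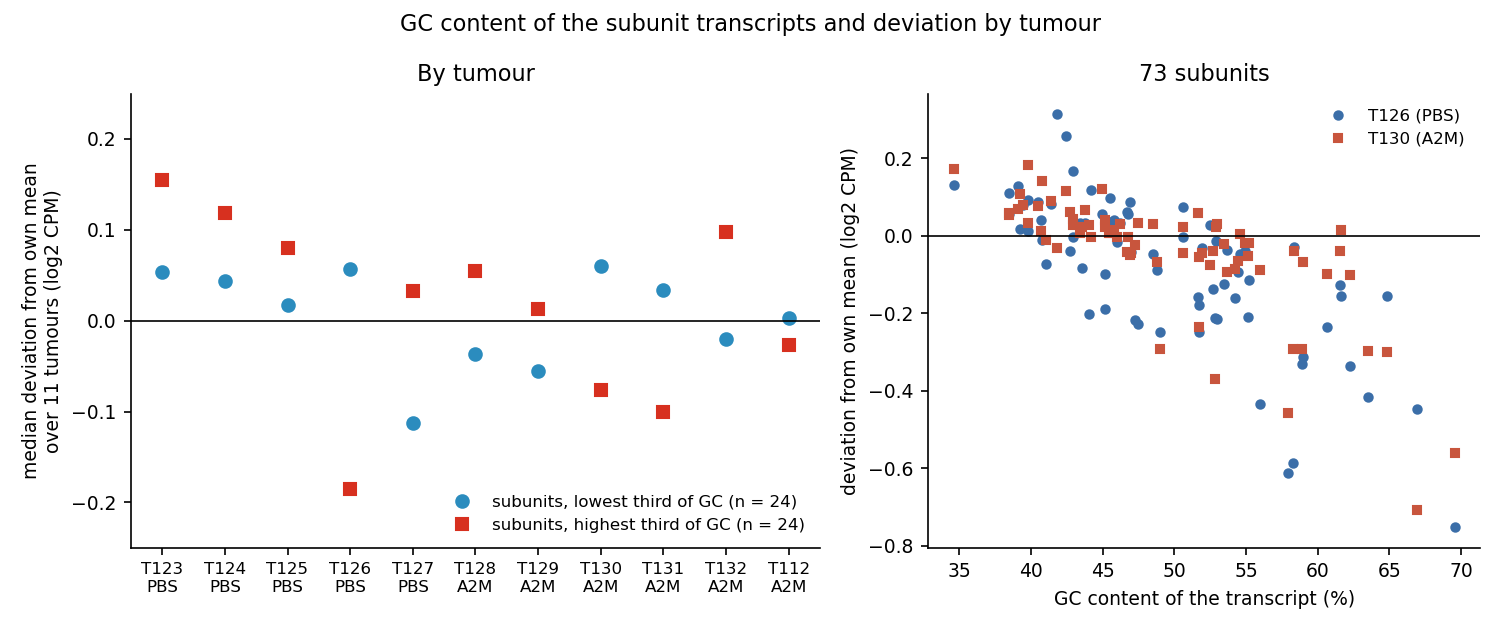
Left, median deviation of log2 CPM from each subunit's own mean over 11 tumours (y axis) by tumour (x axis), for the 24 subunits of lowest GC content (circles) and the 24 of highest (squares). Right, deviation (y axis, log2 CPM) against GC content of the transcript (x axis, percent) for 73 subunits in T126 and T130. Squares fall to -0.18 in T126, -0.08 in T130 and -0.10 in T131, where circles stand at 0.06, 0.06 and 0.03. Deviation declines with GC content in T126 and T130 (r of -0.744 and -0.725).

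Subunits also moved with each other from tumour to tumour. Pearson's r of log2 CPM over the 11 tumours had a median of 0.239 over 822 pairs of subunits of the same complex, 0.220 over 1879 pairs of different complexes and -0.0018 over pairs of all genes. Values centred within the groups gave 0.246, 0.222 and -0.0012. By complex the median was 0.394 in III (36 pairs), 0.296 in V (105), 0.214 in I (630), 0.180 in IV (45) and 0.0948 in II (6). The value of complex III was 0.247 when centred within the groups and 0.557 without T126 and T130, where V had 0.414. The highest r belonged to NDUFA3 and NDUFB10 (0.963), followed by NDUFC1 and UQCR11 (0.940) and NDUFS8 and NDUFS6 (0.930), and ATP5A1 with ATP5F1, of head and stator, had 0.930. The lowest were NDUFV3 with ATP5G2 (-0.873), NDUFS1 with NDUFC2 (-0.872) and NDUFS8 with NDUFA5 (-0.862). NDUFS8 has a GC content of 63.5% and NDUFA5, with 34.6%, the lowest of the subunits. All of these pairs share depth and base composition of the same libraries, and the part of GC content in them was not tested. Without T126 and T130 the medians were 0.270 within and 0.253 across complexes.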

How the data were processed

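RNA of 11 PC-3 xenografts (5 PBS, 6 A2M) was sequenced. The authors made libraries with an Illumina TruSeq kit, kept reads that xenome assigned to human, mapped them with TopHat to hg19 and counted them per RefSeq gene with featureCounts. The submitters' notes name bcl2fastq 1.8.4. The counts were deposited by the authors as whole numbers without normalization. The deposited RPM are these counts per 1e+06 counts of a tumour, with differences of at most 4.99e-07, and the deposited RPKM divide RPM by the exon length from featureCounts. No strand setting is given in the sources used here.

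Counts were filtered (filterByExpr), scaled with TMM factors (0.958 to 1.03) and compared by edgeR 4.0.16 (quasi-likelihood, R 4.3.3) without covariates, at an adjusted p under 0.01 over 16630 genes. The SE was the log2 fold change divided by the root of F. The test was first tested on simulated data. Alternatives were scaling by RLE, by upper quartile or by library size only, leaving out the filter, 10 counts in every tumour, DESeq2 1.42.0, limma-voom 3.58.1 and each tumour left out. Totals were 16958533 to 35874381 counts, and p-values measure the spread between tumours. Samples were grouped as labelled. Log2 CPM had a prior count of 2, and log2 RPKM a pseudocount of 0.1. Positions are from GENCODE on GRCh37 and promoters from RefSeq.

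Members, gene lists and tests were chosen with earlier results of these data known. Named were core subunits, tissue isoforms, the highest and lowest member of each complex, the 3 members of each complex (1 in complex II, 2 in III) with the smallest p in each direction, and members with an unadjusted p under 0.05. Some single genes that the rule covers are not reported here. Members with the widest spread, pairs of extreme r and the assembly, citric acid cycle and hypoxia genes given were chosen after their values were seen. Plots were made in Python 3.11.15 (matplotlib 3.10.9).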

Additional observations from a re-analysis of the deposited data

Results flagged for a closer look

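RPKM of the named members was searched for tumours far from the rest of their group (Dixon's criterion at 95%). The search covered 104 groups of values and found 8, where about 1 in 20, or 5.20, comes about by chance. In the PBS group T127 was the lowest for COX7A2 with 92.8 RPKM (next 104), for SDHB with 49.0 RPKM (next 54.8) and for UQCRHL with 33.7 RPKM (next 37.8), and T126 for NDUFS8 with 85.5 RPKM (next 118). In the A2M group T132 was the highest for ATP5H with 222 RPKM (next 201) and for ATP5I with 207 RPKM (next 168), T130 was the lowest for COX8A with 186 RPKM (next 262), and T131 for SDHA with 35.7 RPKM (next 39.7). T126, T130 and T131 are the tumours in which the subunits of highest GC content were lowest by their median deviation. The causes were not tested.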

How the results depend on the processing

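No member passed an adjusted p under 0.01 in any alternative run, or one under 0.05 with all tumours kept, and the smallest adjusted p of a named member was 0.427. Members with an unadjusted p under 0.05 numbered 5 (7.08% of all genes), but 2 with upper quartile (7.16%) or library size only (7.998%), 3 with limma-voom (7.09%), and 0 to 6 with each tumour left out (4.09 to 10.1%). By the rule of the study's methods 1 member was found with T127 left out and 0 with any other tumour left out. The share of all genes by this rule, 1.45%, is given with all tumours kept only. These counts can therefore not be read against it. By canonical length the median level was 72.1 RPKM in complex I (35 subunits with such a length, 55.6 RPKM as deposited), 64.9 in II and 116 in V, and without T126 and T130 the median r was 0.270. The named members gave 893 log2 fold changes under these settings, of which 856 kept their direction, none passed the threshold and 37, small values in 14 genes, reversed. With library size only ATP5G2 was 0.018, COX6A1 0.0059, NDUFS3 0.029, NDUFV1 0.0078, SDHB 0.044, SDHC 0.017 and UQCRQ 0.0041. With upper quartile NDUFS3 was 0.00063 and SDHB 0.013. SDHB was 0.00037 with 10 counts in every tumour and 0.00041 with limma-voom. Without T126 and T130, which was chosen after seeing the data as was the canonical length, ATP5L2 was -0.048, SDHB 0.00026 and SDHC 0.0030. With each tumour left out, ranges were -0.253 to 0.059 for ATP5D, -0.014 to 0.088 for ATP5L2, -0.012 to 0.056 for COX5A, -0.048 to 0.085 for COX5B, -0.0013 to 0.054 for COX7A2L, -0.036 to 0.168 for COX8A, -0.0083 to 0.070 for NDUFA4, -0.043 to 0.033 for NDUFS3, -0.035 to 0.040 for SDHB and -0.095 to 0.0043 for UQCRQ. The causes were not tested. No paired analysis was possible because the groups share no tumour numbers. Tissue isoforms with at most 7 counts per tumour did not pass the filter, so no difference in them was tested at this depth.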
